A study of Homo sapiens with 4 samples.

Results

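The genes described here are 9 genes of retinoid binding and retinoic acid turnover, measured by RNA-seq in 4 libraries of Hs578T, an established triple-negative breast cancer line with mesenchymal features. They are CRABP2, DHRS3, DHRS9, CYP26B1, RDH10, RDH11, RARA, RARG and RXRA, and each was found by its symbol among the 60664 genes of the deposited table. They were chosen with their counts, TPM and fold changes in this comparison already known, so their differences are given as a description, without p-values. The control group is 2 libraries of cells whose treatment label reads empty, and the table's headers name that group FLAG. The other group is 2 libraries of cells with overexpressed TFCP2L1, a CP2-type transcription factor related to grainyhead proteins. All 4 libraries come from the same line, and the labels give no vector, no clone and no time after delivery of the gene. Separate cultures are not stated for the 2 libraries of a group, and the p-values therefore reflect the variation among these libraries alone, possibly technical. No batch is labelled, and a batch that ran with the groups and the groups themselves cannot be told apart.

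Retinoids are vitamin A and its derivatives. Retinol enters the cell, is oxidised to retinal by retinol dehydrogenases and then, irreversibly, to retinoic acid by retinal dehydrogenases, while retinal reductases turn retinal back into retinol. Retinoic acid is carried by cellular binding proteins to the receptors RARA, RARB and RARG, which pair with RXR receptors on DNA, and it is cleared by hydroxylases of the CYP26 family. In breast cancer cells retinoic acid is known for slowing growth where the binding protein CRABP2 and the RAR receptors are present.

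The libraries held 18960674 to 26355502 estimated counts. TFCP2L1 was counted 12 and 19 times in empty and 4623 and 5069 times in overexpressing libraries, so all 4 libraries went with their labels. Mesenchymal markers of the line (VIM, CD44, AXL, FN1, SPARC and CAV1) lay between 136 and 4563 TPM in every library. TPM are the authors' counts scaled by gene length and library. Of the luminal markers, ERBB2 had 19.55 and 17.17 TPM in empty and 33.42 and 31.49 TPM in overexpressing libraries. GATA3 reached 6.95 TPM, while ESR1, CDH1 and EPCAM stayed at or below 1.03 TPM and PGR had no count. The immune list summed to 33.4 and 35.2 TPM in empty and 81.1 and 78.7 TPM in overexpressing libraries, nearly all of it CD68, with PTPRC and CD3E between 0 and 0.20 TPM. The endothelial list summed to 12.6 and 9.46 TPM against 3.72 and 3.18 TPM, mostly PECAM1, with CDH5 at most 0.08 TPM. Mitochondrial transcripts took 3.68% and 3.60% of counts in empty and 4.0% and 4.01% in overexpressing libraries. The part of these differences in the results on retinoid genes was not tested.

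Promoter sequences are shown for the 2 retinoid genes with the largest rises, CRABP2 and DHRS3, and for STRA6 and RARB, a retinol transporter and a retinoic acid receptor that rose beside them. They come from RefSeq (GRCh38.p14), which had a window of 300 bases around at least 1 annotated start for 8 of the 9 genes, and RDH10 had no entry. The stretches lie upstream of 1 annotated start of each gene and leave out bases that the GENCODE release 29 annotation counts as exons of that gene. Capitals mark the core hexamers that RAR and RXR bind in pairs, on either strand: AGGTCA, its variant AGTTCA, the variant GGGTCA and the variant GGTTCA. STRA6 had 5 windows and RARB 4. For each of them the window shown held the most upstream core hexamers, 3, against 0 or 1 in its other windows.
CRABP2, chr1:156705817-156706034, minus strand: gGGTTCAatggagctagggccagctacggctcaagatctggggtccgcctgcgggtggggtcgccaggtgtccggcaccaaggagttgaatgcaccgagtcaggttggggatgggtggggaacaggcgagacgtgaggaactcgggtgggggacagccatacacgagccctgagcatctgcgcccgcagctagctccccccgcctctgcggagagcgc
DHRS3, chr1:12616796-12617039, minus strand: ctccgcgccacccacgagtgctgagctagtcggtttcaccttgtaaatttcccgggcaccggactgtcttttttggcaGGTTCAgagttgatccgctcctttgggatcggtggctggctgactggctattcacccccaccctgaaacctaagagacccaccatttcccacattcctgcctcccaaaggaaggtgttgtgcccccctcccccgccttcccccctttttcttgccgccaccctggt
STRA6, chr15:74212268-74212509, minus strand: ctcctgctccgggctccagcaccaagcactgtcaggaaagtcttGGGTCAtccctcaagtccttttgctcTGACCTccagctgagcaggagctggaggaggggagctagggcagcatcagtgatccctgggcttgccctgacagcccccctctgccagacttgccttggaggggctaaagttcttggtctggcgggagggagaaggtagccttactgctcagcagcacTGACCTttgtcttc
RARB, chr3:25428013-25428262, plus strand: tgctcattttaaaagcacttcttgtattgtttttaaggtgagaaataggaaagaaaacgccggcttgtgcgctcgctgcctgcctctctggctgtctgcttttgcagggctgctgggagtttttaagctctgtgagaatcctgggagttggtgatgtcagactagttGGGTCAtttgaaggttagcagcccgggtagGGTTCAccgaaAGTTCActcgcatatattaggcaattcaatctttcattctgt

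The RARB stretch holds GGTTCA and AGTTCA as a direct repeat with 5 bases between them (DR5), the arrangement known as the classical retinoic acid response element of this promoter, at positions -53 to -37 from the annotated start. Over all RefSeq windows, 0.106% of 27305 genes held such a DR5, and 43.7% held at least 1 single core hexamer. Of the 8 retinoid genes with a window, 5 held a single core hexamer (CRABP2, DHRS3, DHRS9, RARA and RXRA), and none held a DR1, DR2 or DR5. These 8 genes had 16 windows, against 35116 windows for the 27305 genes. They thus had more windows per gene in which to match, and nothing is read from the share by gene. By window, 38.6% of all windows held a core hexamer. In DHRS3 the core hexamer shown lay at positions -172 to -167, and another of its 3 windows held AGGTCA. The remaining window, with upstream bases chr1:12618211-12618460, held none of the motifs searched and alone lay outside the gene span given below. The window shown lay inside that span. It also held 2 copies of CCAG with 6 bases between them, the paired form bound by TFCP2L1, from position 15 to 28 downstream of the start. That pair was present in 5.0% of genes, and the grainyhead-type core AACCGG, which 8.65% of genes held, was in none of the windows of the 8 genes. RARG, RDH11 and CYP26B1 held none of the motifs searched. A match describes these letters only, and binding was not measured.

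Across the 9 genes, the empty and the overexpressing libraries lay fully apart for 8, with 5 higher and 3 lower with TFCP2L1. CPM, counts scaled to library size, and TPM gave the same 8 genes. The groups lay apart in CPM for 73.7% of the 16544 tested genes, 36.7% higher and 37.1% lower, and in TPM for 67.6%. By edgeR's quasi-likelihood test at an adjusted p under 0.05 over all tested genes, the same 8 were called, against 47.5% of all tested genes, 23.5% higher and 23.9% lower. The retinoid genes were picked from this contrast, and nothing is read from that difference. The median log2 fold change was 0.38 over the 9 genes and -0.002 over all tested genes. The authors' deposited table put its significance mark on 5 of the 9, CRABP2, DHRS3 and DHRS9 higher and CYP26B1 and RDH10 lower. Of the unmarked genes, RDH11, RARG and RXRA also had an adjusted p under 0.05 there, and RARA did not. Their deposited fold changes were 1.33, 1.31 and 0.698, and 1.03 for RARA. The mark therefore does not rest on that threshold alone.

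**Figure D1:**
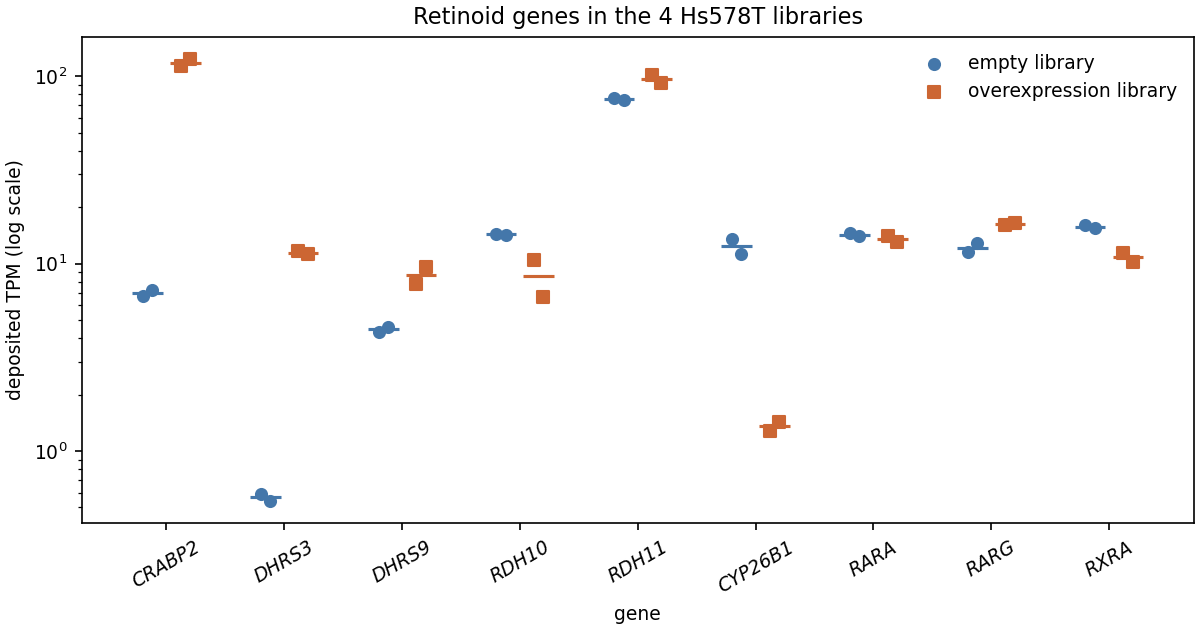
Deposited TPM (log scale) of the 9 retinoid genes in each library, with empty libraries as circles, overexpressing libraries as squares and a line at the mean of each group. CRABP2 and DHRS3 rose and CYP26B1 fell by the largest factors, and RARA is the gene whose groups overlap.

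CRABP2 (ENSG00000143320; GRCh38, chromosome 1, 156699606 to 156705816, minus strand), the protein that carries retinoic acid from the cytosol to nuclear RAR, reached 85 and 74 counts without and 1452 and 1826 counts with TFCP2L1. These were 3.65 and 3.91 CPM against 60.9 and 69.7 CPM, and 6.73 and 7.22 TPM against 113 and 124 TPM. Both overexpressing libraries lay far above both empty ones. The fold change was 17.3 (log2 4.11, SE 0.12), while counts divided by depth gave 17.4-fold (exact 95% interval 14.8 to 20.5, counting error only). Among the tested genes 56 had a larger log2 fold change.

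CRABP2 was seventh of the 9 genes by TPM in empty cells and became the most abundant with TFCP2L1. Its share of their summed TPM was 4.26% and 4.65% in empty libraries and 39.3% and 43.5% with TFCP2L1. The sum over the 9 genes itself went from 157 ± 1.86 to 286 ± 2.09 TPM (SD, n = 2). FABP5, a fatty acid binding protein known to carry retinoic acid to PPARD instead, is the natural gene to set beside it. It had 105 and 125 TPM in empty and 105 and 112 TPM in overexpressing libraries, and its log2 fold change of -0.05 (SE 0.10) was not called (edgeR adjusted p = 0.693). Its processed pseudogenes make its own count uncertain. The TPM ratio of CRABP2 to FABP5 was 0.0644 and 0.0577 in empty libraries and 1.08 and 1.1 with TFCP2L1. CRABP1, the other cellular retinoic acid binding protein, had 1 count in 1 empty library and 0 in the other 3.

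DHRS3 (ENSG00000162496; chromosome 1, 12567910 to 12617731, minus strand), a reductase that turns retinal back into retinol and is known as induced by retinoic acid, had 20 and 15 counts in empty libraries and 370 and 422 with TFCP2L1. In TPM these were 0.59 and 0.54 against 11.6 and 11.2. The overexpressing libraries were close to each other and far above the empty ones. The fold change was 19 (log2 4.25, SE 0.19), the largest of the 9 genes, while counts divided by depth gave 19.1-fold (exact 95% interval 13.6 to 27.6). The interval is wide because the empty libraries held few counts.

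RDH10 (ENSG00000121039; chromosome 8, 73294612 to 73325281, plus strand), the retinol dehydrogenase that makes most embryonic retinal and binds DHRS3 in 1 enzyme complex, went the other way. It had 25.3 and 22.0 CPM in empty libraries and 14.8 and 13.2 CPM with TFCP2L1, with both overexpressing libraries below both empty ones. The log2 fold change was -0.76 (SE 0.11), 1.70-fold lower. In TPM the empty libraries agreed at 14.4 and 14.3, while the overexpressing ones were 10.5 and 6.6, a wider gap than in CPM. The ribosomal protein gene RPL7, with 34069.6 to 51196.2 counts, overlaps the locus on the opposite strand. No source used here gives the strand setting of the counting, and reads from the shared bases cannot be assigned to 1 of the 2 genes. The log2 fold change of RPL7 was 0.07 (SE 0.06, edgeR adjusted p = 0.334).

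DHRS3 and RDH10 exchanged places in level. The TPM ratio of RDH10 to DHRS3 was 24.4 and 26.4 in the empty libraries and 0.904 and 0.589 with TFCP2L1. DHRS9 (ENSG00000073737; chromosome 2, 169064789 to 169096167, plus strand), a short-chain dehydrogenase that oxidises retinol and also steroids, had 4.33 and 4.61 TPM in empty and 7.77 and 9.56 TPM in overexpressing libraries. Its counts were low, at 69 and 82 against 159 and 233, and the groups did not overlap. The fold change was 2.16 (log2 1.11, SE 0.22).

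RDH11 (ENSG00000072042; chromosome 14, 67676801 to 67695814, minus strand), a retinal reductase of the endoplasmic reticulum, was the most abundant of the 9 genes in empty cells. It had 76.2 and 74.9 TPM there and 102 and 92.5 TPM with TFCP2L1. In CPM the groups were 120.2 and 120.9 against 160.2 and 156.6. This change was small and even between libraries, 1.31-fold higher (log2 0.39, SE 0.06). Its share of the summed TPM of the 9 genes fell from 48.3% in both empty libraries to 35.4% and 32.5%, as CRABP2 rose.

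CYP26B1 (ENSG00000003137; chromosome 2, 72129238 to 72148038, minus strand), the cytochrome P450 that hydroxylates retinoic acid and so clears it, had 880 and 558 counts in empty libraries and 87 and 115 with TFCP2L1. These were 37.8 and 29.5 CPM against 3.65 and 4.39 CPM, and 13.6 and 11.3 TPM against 1.28 and 1.43 TPM. Both overexpressing libraries lay far below, and the empty libraries differed from each other by more than the overexpressing ones. CYP26B1 was 8.36-fold lower (log2 -3.06, SE 0.15), or 8.44-fold lower by counts divided by depth (exact 95% interval 7.28 to 9.83). Of all tested genes, 329 had a lower log2 fold change. The other enzymes of the family were nearly uncounted. CYP26A1 had 1 count in 1 empty library and CYP26C1 had 0 counts in all 4, which allows up to 3 counts per library, or 0.114 to 0.158 CPM, for counting error only. The summed CYP26 level was 13.6 and 11.3 TPM in empty and 1.28 and 1.43 TPM in overexpressing libraries.

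**Figure D2:**
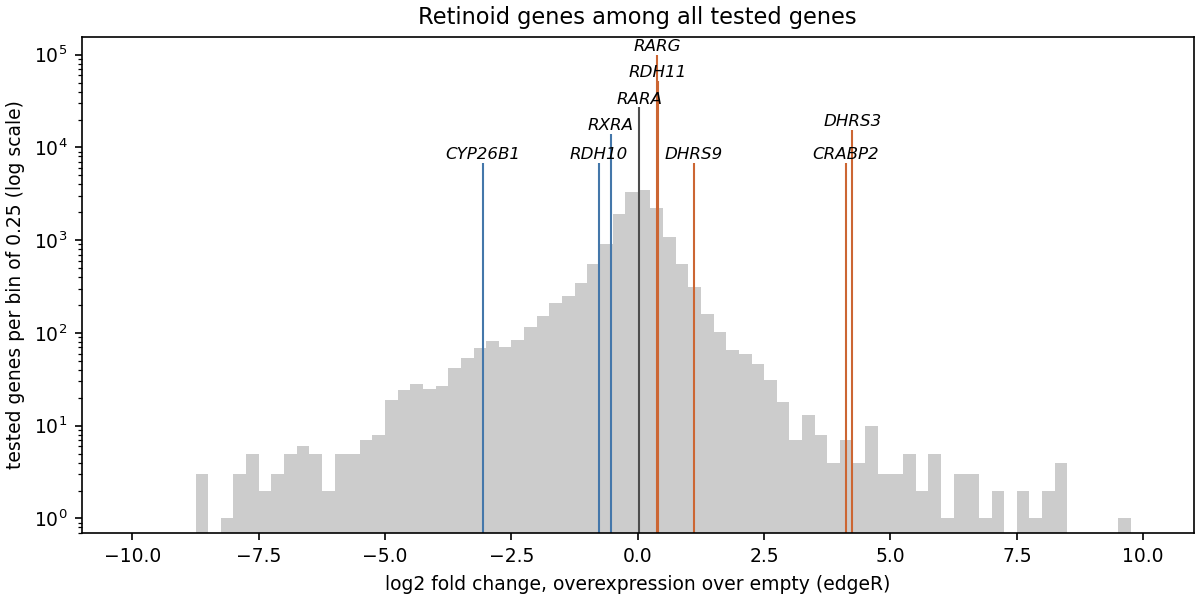
Histogram of the edgeR log2 fold change of all 16544 tested genes (bins of 0.25, log scale), with a line at each of the 9 retinoid genes, orange where both overexpressing libraries were higher, blue where both were lower and grey where the groups overlapped. CRABP2 and DHRS3, at 4.11 and 4.25, and CYP26B1, at -3.06, stand in the tails, and the other 6 lie between -0.76 and 1.11.

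Among the receptors RARA did not separate the groups, RARG was higher and RXRA lower with TFCP2L1. RARA (ENSG00000131759; chromosome 17, 40309192 to 40357643, plus strand), a receptor for retinoic acid, had 22.6 and 24.5 CPM in empty and 23.7 and 24.2 CPM in overexpressing libraries, which overlapped. Its log2 fold change was 0.02 (SE 0.09), while counts divided by depth gave a ratio of 1.02 (exact 95% interval 0.937 to 1.11). RARG (ENSG00000172819; chromosome 12, 53210567 to 53232980, minus strand), its relative, had 18.4 and 19.3 CPM in empty and 23.6 and 25.3 CPM with TFCP2L1. RARG was 1.3-fold higher (log2 0.38, SE 0.10), and the groups did not overlap. RXRA (ENSG00000186350; chromosome 9, 134317098 to 134440585, plus strand), the shared partner of RAR and other nuclear receptors, had 61.0 and 57.2 CPM in empty and 42.1 and 39.7 CPM with TFCP2L1. RXRA was 1.45-fold lower (log2 -0.53, SE 0.08), and the groups did not overlap.

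RARB, the third RAR gene and a known target of retinoic acid through the DR5 shown above, rose 3.02-fold (log2 1.60, SE 0.15, edgeR adjusted p = 6.4e-07). It had 4.19 and 2.95 TPM in empty and 10.8 and 9.51 TPM in overexpressing libraries. Its share of summed RAR TPM went from 13.9% and 9.86% to 26.3% and 24.4%, while that of RARA went from 48.1% and 47.1% to 34.4% and 33.4%. The share of RARG was 38.1% and 43.0% in empty and 39.3% and 42.2% with TFCP2L1, and these overlapped. Summed RAR TPM was 30.2 and 29.9 in empty and 41.1 and 38.9 with TFCP2L1. RXRB was the more abundant RXR gene, at 30.8 and 34.3 TPM in empty and 33.3 and 33.9 TPM in overexpressing libraries, with a log2 fold change of 0.12 (SE 0.08, edgeR adjusted p = 0.212). RXRA made up 34.2% and 31.0% of RXR TPM in empty and 25.5% and 23.2% in overexpressing libraries. RXRG had 1 count in 1 empty library and none elsewhere.

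**Figure D3:**
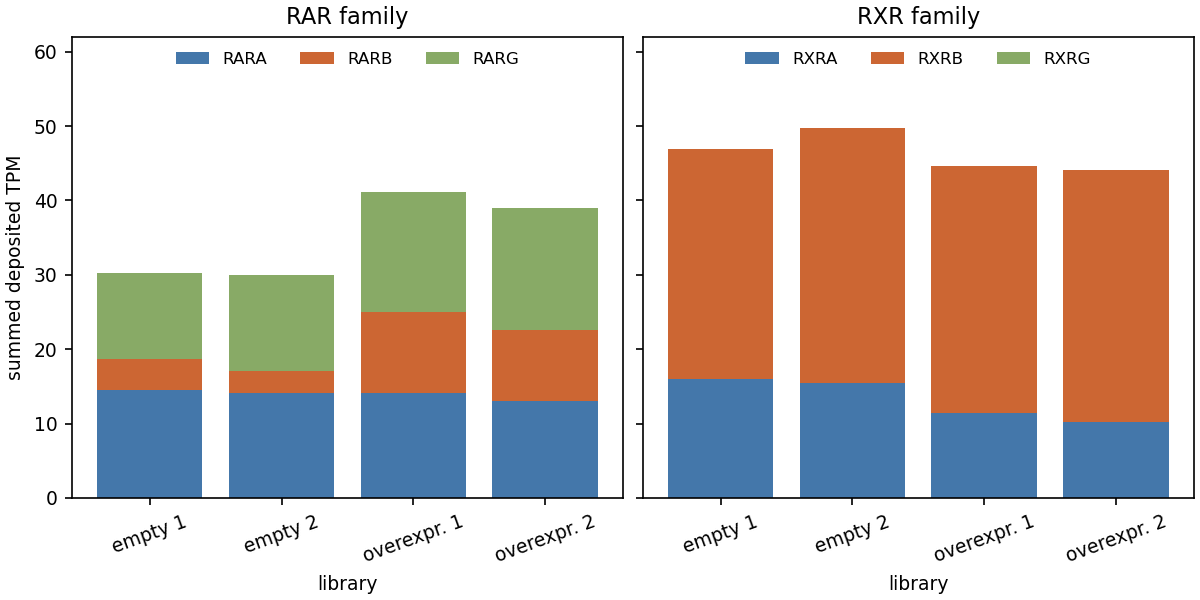
Summed deposited TPM of the RAR genes (left) and RXR genes (right) in each library, stacked by gene. Summed RAR TPM is 30.2 and 29.9 without and 41.1 and 38.9 with TFCP2L1, where the RARB portion is larger, and summed RXR TPM lies between 44.2 and 49.8 with a smaller RXRA portion after TFCP2L1.

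In empty cells the order of levels in TPM was RDH11, then RXRA, RDH10, RARA, CYP26B1 and RARG within 11.3 to 16.1, then CRABP2, DHRS9 and DHRS3. Within that middle group RDH10 and RARA overlapped, as did CYP26B1 and RARG. With TFCP2L1 the order was CRABP2, RDH11, RARG, RARA, DHRS3, RXRA, DHRS9, RDH10 and CYP26B1. There DHRS3 and RXRA overlapped. RDH10, at 10.5 and 6.6 TPM, overlapped both DHRS9 and RXRA, the latter at 11.4 and 10.3 TPM, so its place among them is not settled. The libraries of CRABP2, RDH11, RARG and RARA lay apart from those of their neighbours in the order.

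Genes most like DHRS3, the largest rise, over the 4 libraries were NEURL1B, SLC12A7 and PDE5A, and those most like CYP26B1, the largest fall, were KCNK1, PTGS1 and EPB41L3. Likeness was the Euclidean distance between centred log2(CPM + 0.5) values, over 10585 genes of at least 5 CPM. The distances were 0.20, 0.27 and 0.29 for DHRS3 and 0.02, 0.10 and 0.14 for CYP26B1. KCNK1 had 17.2 and 13.2 CPM in empty and 1.43 and 1.76 CPM in overexpressing libraries. NEURL1B had 1.46 and 1.27 CPM against 25.7 and 25.1 CPM. With 4 libraries in 2 groups, likeness rests mostly on the size of the group difference.

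The wider pathway was read from 92 other genes, of which 62 were tested, 30 were too low to test and 8 of these had no count. Their lists, which include RARB, RXRB and FABP5 above, were chosen with earlier results of these data known. The p-values of these genes are therefore descriptive and no independent tests. With TFCP2L1 21 of the 62 were higher, 12 lower and 29 not called. The called share was 53.2%, near the 47.5% over all tested genes, and the median log2 fold change was 0.14. By list it was 80% of 5 tested genes of uptake and transport, 25% of 4 of ester storage and 36.4% of 11 other oxidoreductases. For 9 receptors that pair with RXR the called share was 55.6%, and for 12 co-regulators 33.3%. Nothing is read from these shares.

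In retinol uptake and transport, 1 of 5 tested genes rose and 3 fell. STRA6, the membrane receptor that takes up retinol from its plasma carrier, had 10.3 and 10.1 TPM in empty and 46.7 and 44.3 TPM in overexpressing libraries. It rose 3.96-fold, from 15.9 ± 0.75 to 62.7 ± 1.04 CPM (SD, n = 2, log2 1.99, SE 0.09, edgeR adjusted p = 2.43e-10). CD36, a scavenger receptor that also takes up carotenoids, fell from 56.0 ± 0.43 to 36.6 ± 1.65 CPM (edgeR adjusted p = 1.74e-05). SCARB1, another scavenger receptor, fell from 188 ± 0.67 to 161 ± 1.24 CPM (edgeR adjusted p = 0.00525), a call lost without empty replicate 1 (adjusted p = 0.0757) or empty replicate 2 (adjusted p = 0.0811).

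Of the retinal dehydrogenases, which make retinoic acid, ALDH1A3 was the 1 tested gene. It had 31.5 and 37.6 TPM in empty and 81.4 and 73.4 TPM in overexpressing libraries. It rose 2.35-fold, from 78.0 ± 7.41 to 183 ± 6.25 CPM (log2 1.23, SE 0.07, edgeR adjusted p = 5.56e-09). ALDH1A1 and ALDH1A2 had between 0 and 3 counts in every library. Of the genes of retinyl ester storage, 1 of 4 was called. PNPLA4, a lipase that acts on retinyl esters, fell from 15.7 ± 0.62 to 9.72 ± 0.28 CPM (edgeR adjusted p = 0.000263), DGAT1 had 37.8 ± 0.45 and 40.3 ± 2.57 CPM (edgeR adjusted p = 0.39), and LRAT, the main retinol esterifying enzyme, had at most 1 count.

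Of 11 other tested oxidoreductases of retinol and retinal, 2 rose, 2 fell and 7 were not called. RDH8, known from photoreceptors, had 62 and 41 counts in empty and 1 count in each overexpressing library, 61.1-fold lower by counts divided by depth (exact 95% interval 16.5 to 511, counting error only; edgeR adjusted p = 1.13e-06). RDH14 fell from 25.4 ± 2.82 to 19.3 ± 1.26 CPM (edgeR adjusted p = 0.00645), but was not called without empty replicate 1 (adjusted p = 0.123). DHRS4L2 rose from 14.2 ± 0.71 to 18.4 ± 0.44 CPM (edgeR adjusted p = 0.00985). DHRS4 rose from 12.7 ± 0.65 to 15.9 ± 1.77 CPM (edgeR adjusted p = 0.0383). These 2 are near-identical copies, so the division of reads between them is uncertain, and both calls were lost without empty replicate 1 (adjusted p = 0.0836 and 0.0568) and with DESeq2 (adjusted p = 0.0656 and 0.162). That of DHRS4 was also lost with upper quartile scaling (edgeR adjusted p = 0.0576) and with limma-voom (limma-voom adjusted p = 0.0521). It was lost as well without empty replicate 2 (log2 fold change 0.28) or overexpression replicate 2 (log2 fold change 0.21). RDH5, RDH13, AKR1B10 and AKR1C3 were not called.

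**Figure D4:**
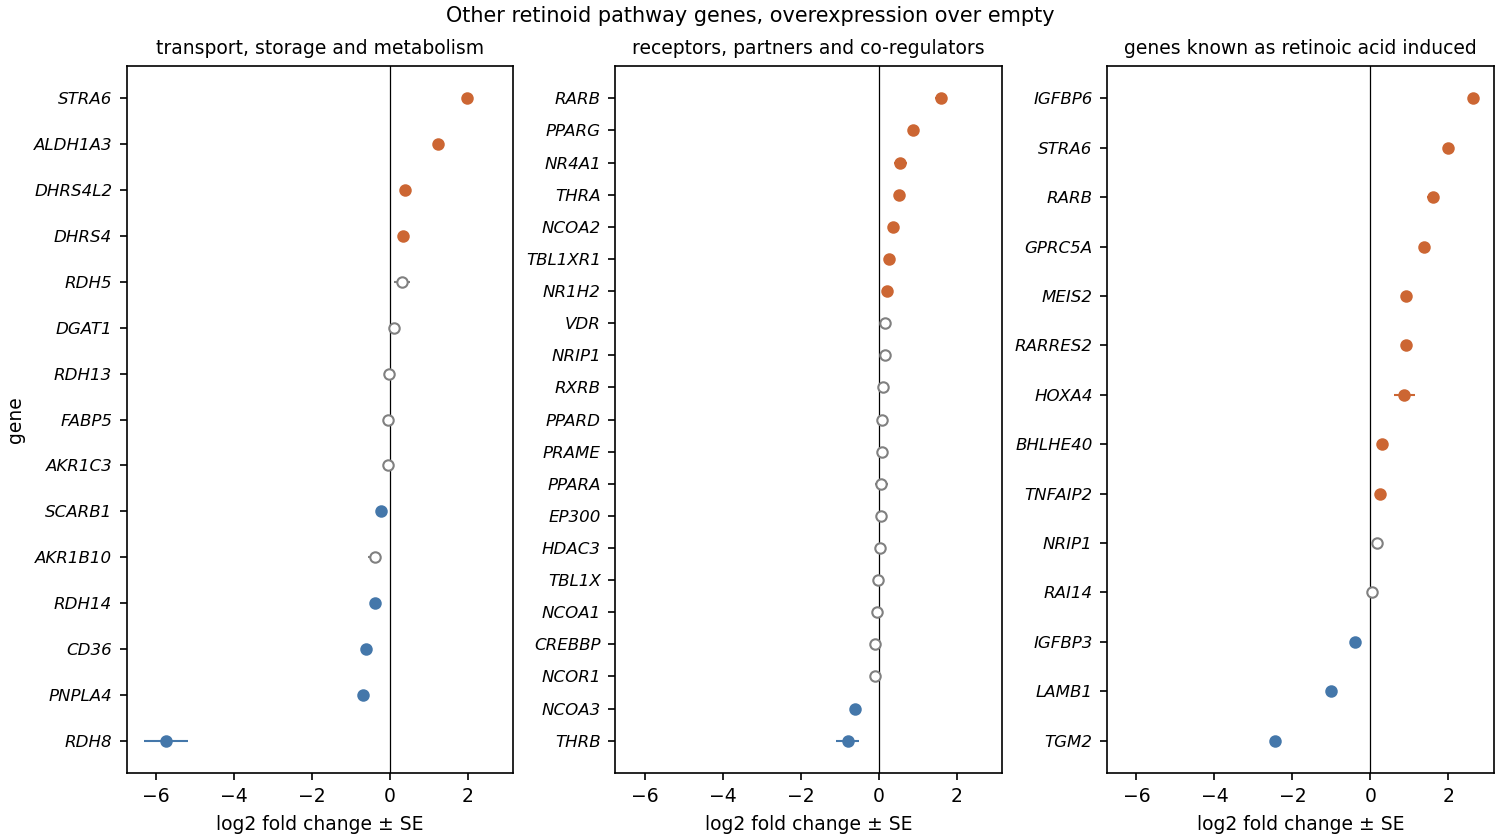
Log2 fold change (overexpression over empty, edgeR) with its standard error for retinoid pathway genes outside the set of 9 that were called or had a mean of at least 5 CPM, with a few not shown, in 3 panels by role, with called rises in orange, called falls in blue and genes not called as open circles. STRA6, ALDH1A3 and RARB stand at 1.99, 1.23 and 1.60, and most co-regulators lie near 0.

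Among other receptors that pair with RXR, 4 of 9 tested rose, 1 fell and 4 were not called. PPARG, the adipogenic receptor, rose from 49.2 to 90.9 CPM (edgeR adjusted p = 1.47e-07) and THRA, a thyroid hormone receptor, from 27.4 ± 1.37 to 39.4 ± 3.76 CPM (edgeR adjusted p = 0.000339). The calls of NR4A1 and NR1H2, which were higher, and of THRB, which was lower, were each lost without empty replicate 1 (adjusted p = 0.080, 0.210 and 0.0817) and without overexpression replicate 2 (adjusted p = 0.0838, 0.138 and 0.162), and those of NR1H2 and THRB also without empty replicate 2 (adjusted p = 0.0875 and 0.134). With DESeq2 on all 4 libraries the calls of NR4A1, NR1H2 and THRB were lost as well (DESeq2 adjusted p = 0.0941, 0.0642 and 0.188). That of NR1H2 was also lost with upper quartile scaling (edgeR adjusted p = 0.0604). That of THRB was also lost when any gene with a count was tested (edgeR adjusted p = 0.0553). VDR, PPARA and PPARD were not called. Of 12 co-regulators of nuclear receptors, 3 rose, 1 fell and 8 were not called. TBL1XR1, part of a co-repressor complex of nuclear receptors, rose from 98.8 ± 4.03 to 119 ± 4.78 CPM (edgeR adjusted p = 0.00389; 0.0899 without empty replicate 1). NCOA2, a co-activator, rose from 33.6 ± 0.74 to 43.5 ± 4.91 CPM (edgeR adjusted p = 0.00381). NCOA3, a co-activator amplified in some breast cancers, fell from 77.8 ± 8.66 to 51.2 ± 3.16 CPM (edgeR adjusted p = 4.42e-05). NCOR1, NCOA1, NRIP1, HDAC3, TBL1X, EP300, CREBBP and PRAME were not called.

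Genes known as induced by retinoic acid in other cells went both ways. Of 30 listed, 21 were tested, 11 were higher, 5 lower and 5 not called, with a median log2 fold change of 0.29. The called share was 76.2%, against 47.5% over all tested genes. The list was chosen with earlier results of these data known, and nothing is read from that difference. STRA6, RARB and NRIP1 of this list also stand in the groups above. IGFBP6, a binding protein of insulin-like growth factors, rose from 29.6 ± 2.46 to 182 ± 21.7 CPM (edgeR adjusted p = 7.74e-11). GPRC5A, an orphan receptor first found as retinoic acid induced, rose from 52.1 ± 3.89 to 135 ± 3.84 CPM (edgeR adjusted p = 1.68e-09). TGM2, tissue transglutaminase and a classical retinoic acid target, went against these and fell from 157 ± 8.31 to 28.6 ± 0.92 CPM (edgeR adjusted p = 6.43e-12). LAMB1, a laminin chain, fell from 255 ± 2.31 to 126 ± 1.52 CPM (edgeR adjusted p = 3.72e-09). RARRES2 and MEIS2 were also higher and IGFBP3 lower, while NRIP1 and RAI14 were not called. The calls of HOXA4, BHLHE40 and TNFAIP2, all higher, each depended on single libraries. Without empty replicate 1 BHLHE40 (adjusted p = 0.121) and TNFAIP2 (0.522) were not called, and without empty replicate 2 HOXA4 (0.068) was not. Without overexpression replicate 1 the adjusted p was 0.0689 for TNFAIP2, and without overexpression replicate 2 it was 0.0578 for TNFAIP2 and 0.17 for HOXA4. The calls of HOXA4 and TNFAIP2 were also lost with DESeq2, and that of TNFAIP2 with upper quartile scaling. Retinoic acid itself was not measured. In RNA of whole cultures, fewer cells that express a gene and less of its RNA per cell cannot be told apart.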

How the data were processed

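Bulk RNA-seq of 4 Hs578T libraries was read from 1 deposited table, whose columns were matched to samples by title. The authors deposited estimated counts per gene, not normalized, and TPM per library, per the file headers. The authors' deposited comparison gives a fold change (ratio), a log2 fold change, a p-value, an adjusted p and a significance mark per gene. The mark is used here, and for unmarked genes also the fold change and whether the adjusted p was under 0.05. The submitters' processing notes name Bowtie 0.12.2 and mm9, which is a mouse build although the gene IDs are human. How the reads were aligned and counted, and whether strand was used, is thus taken as unknown. Gene positions are from GENCODE release 29 and promoters from RefSeq.

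Rounded counts went into edgeR 4.0.16 under R 4.3.3 (TMM, filterByExpr with a minimum count of 10, glmQLFit with robust = TRUE, glmQLFTest, Benjamini-Hochberg adjusted p under 0.05), after a test on simulated data. The simulated data had far fewer changed genes than were called here and a common spread for all genes, so nothing is read from that test. A standard error is the size of the log2 fold change over the square root of its F statistic. Two-sided exact permutation of 2 against 2 libraries cannot pass the threshold and was not used. The retinoid genes and lists were chosen with earlier results of these data known. From each list up to 6 called genes by smallest p, genes of at least 5 CPM that were not called, and 13 core retinoid genes were named by rule, and RARRES2, MEIS2, IGFBP3, HOXA4, BHLHE40 and TNFAIP2 were named after their values were seen. A few genes that the lists count are not reported here by name. Depth limits genes near 0, and intervals cover counting error only.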

Additional observations from a re-analysis of the deposited data

How the results depend on the processing

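All 9 retinoid genes kept their direction over the 3 other scalings, 2 other filters, DESeq2 1.42.0, limma-voom (limma 3.58.1), leaving out each library and the deposited TPM, except RARA, whose log2 fold change ranged from -0.08 to 0.09. Over the same alternatives CRABP2 ranged from 3.91 to 4.22, DHRS3 from 2.99 to 4.31 and CYP26B1 from -3.22 to -2.51, with the values nearest 0 from TPM with a pseudocount of 1. The number of retinoid genes with groups apart was 8 in CPM, in TPM and in CPM on library totals. Genes called numbered 7856, and 5953 to 7858 when 1 library was left out. Other retinoid pathway genes called numbered 33, 22 to 35 when 1 library was left out, 25 with DESeq2 and 26 at an adjusted p under 0.01. With a log2 fold minimum of 1 the counts were 2299 and 11, since that rule adds a condition. No other scaling moved the median of all genes by more than 0.03 on the log2 scale. RDH5, HSD17B6, AKR1B10, AKR1C3, BCO2, NCOR1, NRIP1, EP300 and CREBBP, not called with all 4 libraries, were each called on leaving out 1 library (adjusted p 0.007 to 0.0496). No paired analysis was possible because the labels give the groups no shared replicate numbers. Genes under about 10 counts per library, such as CYP26A1 and CRABP1, could not be tested at this depth.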

Other observations

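The table's own annotation gave 2 further lists, chosen after seeing the data. Of 29 tested genes annotated to the response to retinoic acid, leaving out the 9 genes above, 11 were higher, 11 lower and 7 not called with TFCP2L1, a called share of 75.9% beside 47.5% over all tested genes. Of 23 tested genes of the KEGG retinol metabolism pathway, 5 were higher, 8 lower and 10 not called, a called share of 56.5%.

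Within 100 kb of CRABP2, 10 other genes were tested. NES, which encodes the intermediate filament nestin and lies 22209 bases away, fell from 21.0 ± 0.60 to 1.73 ± 0.14 CPM (SD, n = 2; log2 fold change -3.59, SE 0.15, edgeR adjusted p = 2.05e-10), opposite to CRABP2. MRPL24, a mitochondrial ribosomal protein gene, and HDGF, a growth factor gene, had log2 fold changes of 0.93 (SE 0.08, edgeR adjusted p = 1.71e-07) and 0.18 (SE 0.06, edgeR adjusted p = 0.0134), GPATCH4 had -0.16 (SE 0.06, edgeR adjusted p = 0.0334), and 6 were not called. The 1 tested neighbour of DHRS3 within that distance, VPS13D, had a log2 fold change of 0.03 (SE 0.09, edgeR adjusted p = 0.836). The 1 tested neighbour of CYP26B1, EXOC6B, had -0.20 (SE 0.10, edgeR adjusted p = 0.109).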
